A study of Rattus norvegicus with 8 samples.

Results

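The interferon regulatory and interferon-stimulated genes Irf1, Irf7, Irf9, Stat2, Isg15, Ifit3, Mx1, Gbp2 and Cxcl10 were followed in rat Achilles tendon at rest and directly after running. They were the rows of the deposited table with these 9 gene symbols, out of 15590 genes in all, and all 9 had a row. The tendons came from the right legs of young adult male Sprague-Dawley (SD) rats, labelled WT for genotype. In the post-run group (0 h p.r., 4 libraries) the rats were killed immediately after 1 h of uphill treadmill running, and the naïve controls (NC, 4 libraries) did not run. By the study's methods, air flow and, for rats that left the belt, a mild shock kept the rats running, so handling differed between the groups too. In the study's one-time running experiment the controls were killed together with a later post-run group. When the controls sequenced here were killed is not stated, so a difference in the time of killing cannot be told apart from running. Each library was whole tendon, so fewer cells of a type and less RNA per cell cannot be told apart, and the labels do not say whether each library was 1 rat, so p-values measure the spread between these libraries.

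Interferons are secreted proteins that cells release on sensing viral nucleic acid or that T and NK cells release on activation. Type I interferon acts through the kinases Jak1 and Tyk2 to bring Stat2 and Irf9 into a complex that binds the interferon-stimulated response element (ISRE), while interferon gamma acts on its targets through the gamma-activated site (GAS). Several of the target genes, among them Irf1, Irf7, Irf9 and Stat2, encode parts of the pathway itself, and Irf1 is also a target of cytokine and NF-kB signalling. Other targets act as feedback brakes.

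The libraries held between 11350560 and 17897056 reads in the listed genes, recovered from the steps of the FPKM values (fragments per kilobase of gene, scaled between libraries). Expression was compared on log2(FPKM + 0.5) over 13863 genes. Markers of tenocytes were all present, with a summed FPKM of 3777 to 7451 in NC and 4154 to 7450 in 0 h p.r. for the 8 genes. The 8 macrophage markers summed to 282 to 586 FPKM in NC and 371 to 917 in 0 h p.r., and the 6 of 7 endothelial markers with a row to 389 to 439 and 323 to 439. The 7 adipocyte markers lay apart, at 2474 to 4572 in NC and 829 to 1791 in 0 h p.r., and the 6 of 8 skeletal muscle markers with a row spanned 848 to 27978 in 0 h p.r. against 4041 to 6164 in NC. Of the T and NK cell markers 3 of 9 had a row (13.6 to 25.2 FPKM in NC, 12.1 to 25.2 in 0 h p.r.), and of the B and plasma cell markers 1 of 5, Jchain, at 0.163 to 0.940 FPKM over the 8 libraries. The 4 of 6 neutrophil markers with a row summed to at most 4.67 FPKM in any library. The part of these tissues and cells in the results below was not tested.

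None of the 9 interferon genes passed both thresholds in limma (adjusted p under 0.05, at least 2-fold in size). Of all tested genes 2.7% did so, and 5.72% passed the adjusted p alone, again with none of the 9. At an unadjusted p under 0.05 there was 1 of the 9, Irf1, against 22.6% of all tested genes, and voom, run on the recovered reads, also passed 0 of 9, with 1 at an unadjusted p under 0.05. The log2 fold change from NC to 0 h p.r. had a median of 0.32 over the 9 genes and of -0.0014 over all tested genes. The median of the 9 moved with single libraries, to 0.15 when 0 h p.r. replicate 3 was left out, to 0.56 when replicate 1 of that group was, and to 0.16 when NC replicate 3 was. With array weights it was 0.50, and with both libraries numbered 3 left out -0.014. The change was above 0 for 6 genes and below 0 for Stat2, Gbp2 and Cxcl10, with the same count of 6 after quantile normalization and after rescaling to TPM. It was above 0 for 5 genes without 0 h p.r. replicate 3, for 4 without both libraries numbered 3, and for 7 with array weights or without NC replicate 2. For 6 of the 9 the fitted change was under 1.5-fold in size, against 85.6% of all tested genes. Irf1, at 1.49-fold, was counted among the 6.

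**Figure D1:**
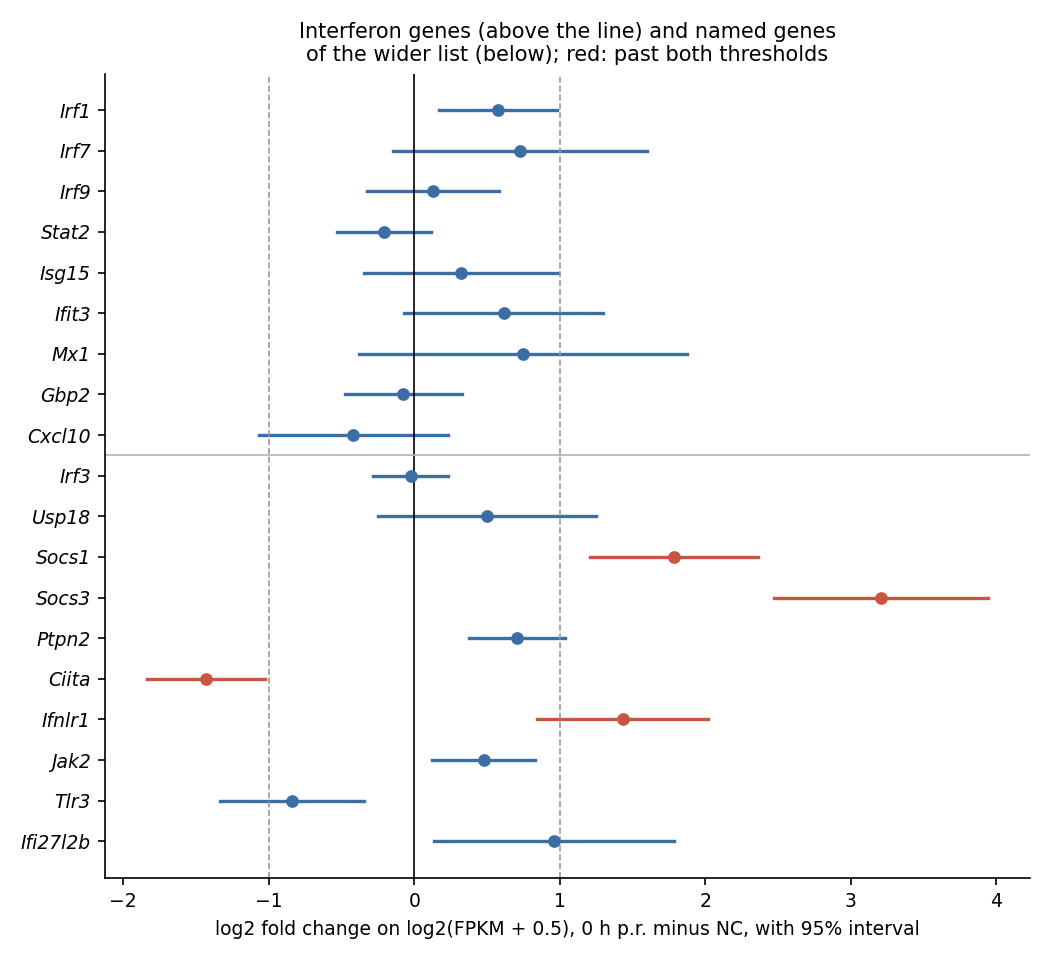
Log2 fold changes (x axis, on the log2(FPKM + 0.5) scale, 0 h p.r. minus NC) of the 9 interferon genes, above the grey line, and of the named genes of the wider interferon list, below it. Points are limma estimates from 4 libraries a group, bars their 95% intervals, dashed lines a fold of 2, and red marks the genes past both thresholds, of which none is above the line.

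Irf1 encodes a transcription factor that interferon gamma and inflammatory cytokines induce and that drives antigen presentation and chemokine genes. Its FPKM was 14.5, 16.0, 10.2 and 14.3 in NC replicates 1 to 4, and 20.1, 18.5, 27.0 and 17.5 in 0 h p.r. replicates 1 to 4. All 4 post-run libraries lay above all 4 resting ones, which held for 8.15% of the tested genes in this direction. None of the 9 genes lay apart in the other direction, which held for 7.47%. From a mean of 13.8 ± 2.52 at rest it went to 20.8 ± 4.29 after running (SD, n = 4). This was 0.58 ± 0.18 (standard error) on the log2 scale, with an adjusted p of 0.0968 in limma. The 95% interval ran from a 1.12-fold to a 1.98-fold higher level. Over 18 other settings the adjusted p of Irf1 in limma lay between 0.0347, with array weights, and 0.349, without both libraries numbered 3, where the log2 fold change was 0.31.

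Irf7 encodes the factor that amplifies production of type I interferon, and it is itself a target of the ISRE complex. It was at 10.5, 10.1, 5.73 and 12.8 FPKM in NC and at 10.7, 10.7, 35.7 and 15.4 in 0 h p.r. The groups overlapped, and the higher mean after running (18.1 ± 11.9 against 9.79 ± 2.96, SD, n = 4) came largely from 0 h p.r. replicate 3. Its log2 fold change was 0.73 (standard error 0.39, limma adjusted p 0.308), 0.346 without that library and 0.12 without both libraries numbered 3.

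Irf9 and Stat2 encode the DNA-binding and activating subunits of the complex that recognises the ISRE. Irf9 stood at 20.2, 16.1, 14.2 and 18.8 FPKM in NC and at 13.2, 19.3, 25.9 and 18.8 in 0 h p.r. Its lowest and its highest library were both post-run (log2 fold change 0.13, 95% interval -0.32 to 0.58, limma adjusted p 0.769). Stat2 stood at 10.7, 10.4, 10.9 and 14.9 FPKM in NC and at 9.79, 9.53, 11.6 and 9.16 in 0 h p.r. Of the post-run libraries 3 lay below all NC libraries, and the fourth lay above 3 of them. For Stat2 the log2 fold change was -0.21 (95% interval -0.53 to 0.12, limma adjusted p 0.450), so the interval left room for a level up to 1.09-fold higher or down to 0.691 of that in NC. Without NC replicate 4 it was -0.092.

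**Figure D2:**
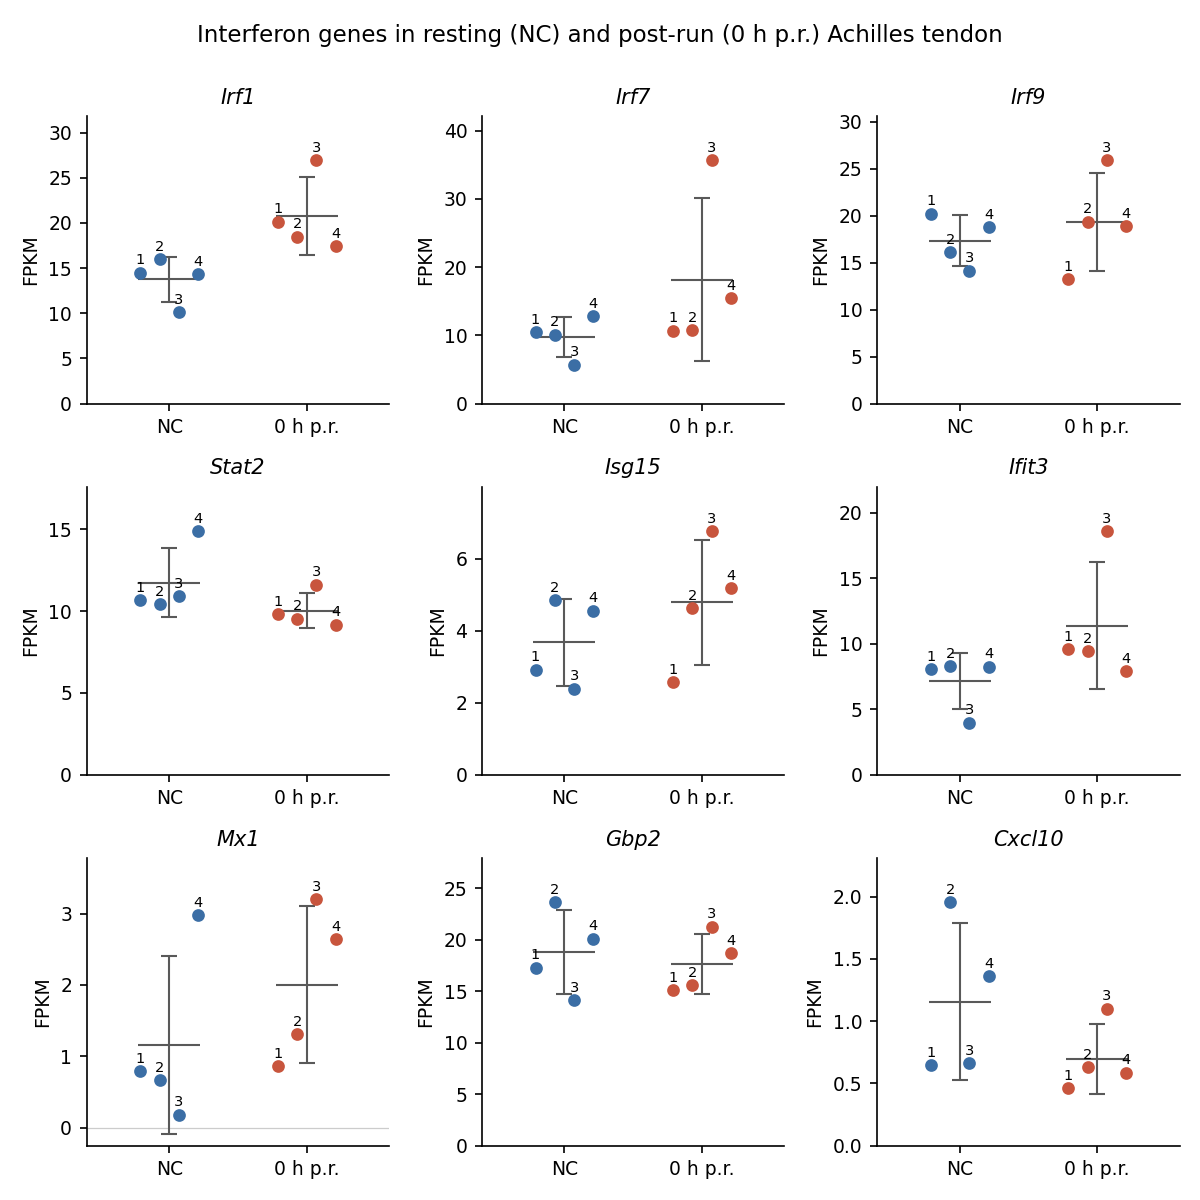
FPKM (y axis, from 0) of each of the 9 interferon genes in the 4 NC and the 4 0 h p.r. libraries. Each point is a library with its replicate number, and the grey line and bar are the group mean and SD. Irf1 is the gene whose groups do not overlap, and 0 h p.r. replicate 3 is the highest post-run library in all 9 panels.

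Promoter sequences of GRCr8 from RefSeq were matched by symbol for 8 of the 9 genes, all but Isg15. The windows below show where Irf1 and Irf9 held the letters of a GAS, TTCNNNGAA, in capitals on the strand of the gene. In Irf1 (chr10:38417768-38417826, plus strand) the match began 142 bases before the transcription start, and in Irf9 (chr15:33065712-33065770, plus strand) 99 bases before it. Of all 33469 promoters 8.87% held such a match between 250 bases before and 50 after the start.
Irf1: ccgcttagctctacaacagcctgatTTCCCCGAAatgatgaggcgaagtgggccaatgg
Irf9: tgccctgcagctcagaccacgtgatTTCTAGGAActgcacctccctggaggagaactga

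The effectors carry out the antiviral work. Isg15, a ubiquitin-like protein that is attached to other proteins, stood at 2.91, 4.84, 2.38 and 4.55 FPKM in NC and at 2.58, 4.61, 6.77 and 5.18 in 0 h p.r. The groups overlapped over most of their range. Isg15 had a log2 fold change of 0.32 (95% interval -0.34 to 0.99, limma adjusted p 0.581), and -0.014 without both libraries numbered 3. Without NC replicate 3 alone it was 0.16, without 0 h p.r. replicate 3 alone 0.15, and without 0 h p.r. replicate 1 it was 0.56.

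Ifit3, which binds Ifit1 in a complex that captures viral RNA, stood at 8.06, 8.29, 3.96 and 8.25 FPKM in NC and at 9.60, 9.43, 18.6 and 7.90 in 0 h p.r. In both groups 3 libraries lay close together and the library numbered 3 lay apart, below them at rest and above them after running. Ifit3 had a log2 fold change of 0.61 (standard error 0.30, limma adjusted p 0.273), 0.37 without NC replicate 3, 0.36 without 0 h p.r. replicate 3 and 0.12 without both.

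Mx1, a dynamin-like GTPase that traps viral components, was low and the most scattered of the 9 within NC, at 0.798, 0.670, 0.185 and 2.98 FPKM, from 9 to 147 recovered reads. After running it stood at 0.862, 1.31, 3.20 and 2.64 FPKM. NC replicate 4 lay above 3 of the 4 post-run libraries. The log2 fold change of Mx1 was 0.75 with a 95% interval from -0.38 to 1.87 (limma adjusted p 0.429), and it depended on single libraries. It was 1.19 without NC replicate 4 (limma adjusted p 0.139), 0.41 without NC replicate 3, 0.52 without 0 h p.r. replicate 3 and 0.18 without both libraries numbered 3. The added 0.5 FPKM understates the change of this low gene too, and with 0.1 FPKM added it was 1.09, and with voom 1.23.

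Gbp2, a guanylate-binding protein that attacks intracellular microbes and answers mainly to interferon gamma, stood at 17.3, 23.7, 14.1 and 20.1 FPKM in NC and at 15.1, 15.6, 21.3 and 18.7 in 0 h p.r. Every post-run value lay inside the range of NC. Gbp2 had a log2 fold change of -0.076 (95% interval -0.48 to 0.33, limma adjusted p 0.858). Ifit3, Mx1 and Gbp2 belong to families of related copies, so the division of reads among the copies is uncertain.

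Cxcl10, the chemokine that draws activated T cells through Cxcr3, was low, with 7 to 23 recovered reads per library. Its FPKM was 0.645, 1.96, 0.661 and 1.36 in NC and 0.464, 0.632, 1.10 and 0.586 in 0 h p.r. Of the post-run libraries 3 lay below all NC libraries. The log2 fold change of Cxcl10 was -0.42 (95% interval -1.07 to 0.23, limma adjusted p 0.443), on a scale whose added 0.5 FPKM understates the change of so low a gene. With 0.1 FPKM added it was -0.58, without NC replicate 2 it was -0.21, with array weights -0.19, and without both libraries numbered 3 -0.72.

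The ISRE letters, GAAA followed after 2 bases of any kind by a second GAAA, on either strand, were found in the promoters of Irf7, Ifit3, Gbp2 and Cxcl10, which is 4 of 8, and in 3.92% of all promoters. The windows are shown for where the match, in capitals, lies. It began 69 bases before the start in Irf7 (chr1:205800058-205800117, minus strand), 44 in Ifit3 (chr1:241527257-241527316, plus strand), 31 in Gbp2 (chr2:234005671-234005726, plus strand) and 243 in Cxcl10 (chr14:15988816-15988857, plus strand). The first 3 show the element from the other strand, as TTTC, 2 bases and TTTC. In Irf1, Irf9, Stat2 and Mx1 these letters were not in the window.
Irf7: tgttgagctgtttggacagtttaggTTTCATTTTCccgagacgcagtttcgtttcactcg
Ifit3: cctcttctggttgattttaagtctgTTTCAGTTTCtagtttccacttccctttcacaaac
Gbp2: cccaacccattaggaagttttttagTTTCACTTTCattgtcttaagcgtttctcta
Cxcl10: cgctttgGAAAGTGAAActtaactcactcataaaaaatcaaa

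By level per length, the order at rest was Gbp2 (18.8 ± 4.07 FPKM), Irf9 (17.3 ± 2.71), Irf1 (13.8 ± 2.52), Stat2 (11.7 ± 2.12), Irf7 (9.79 ± 2.96), Ifit3 (7.14 ± 2.12), Isg15 (3.67 ± 1.21), Mx1 (1.16 ± 1.24) and Cxcl10 (1.16 ± 0.631, SD, n = 4). Each gene overlapped its neighbour in this order, so the order of neighbours was not fixed beyond their spread. After running Irf1 stood first (20.8 ± 4.29 FPKM), followed by Irf9 (19.3 ± 5.20), Irf7 (18.1 ± 11.9), Gbp2 (17.7 ± 2.89), Ifit3 (11.4 ± 4.88), Stat2 (10.03 ± 1.09), Isg15 (4.79 ± 1.73), Mx1 (2.00 ± 1.10) and Cxcl10 (0.696 ± 0.279). In this group the only neighbours that did not overlap were Stat2 and Isg15.

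Within each group the 9 genes varied together from library to library. Of the 4 post-run libraries replicate 3 was the highest for 9 of 9 genes, and for 20.6% of all tested genes. Of the 4 NC libraries replicate 3 was the lowest for 7 of 9 genes, and for 22.2% of all tested genes. The lowest post-run library was replicate 1 for 6 genes and replicate 4 for 3. The median deviation of the 9 genes from their group mean on the log2 scale reached 0.45 for 0 h p.r. replicate 3 and -0.44 for NC replicate 3, against -0.0013 in each for all tested genes. In 0 h p.r. replicate 3 the macrophage markers summed to 371 FPKM, the lowest of that group, the endothelial markers to 439, the highest, and the skeletal muscle markers to 13279. Its tenocyte markers summed to 4154 FPKM and its T and NK cell markers to 12.1, both the lowest of that group. In NC replicate 3 the macrophage markers summed to 282 FPKM, the endothelial markers to 389 and the T and NK cell markers to 13.6, the lowest of NC in each case, and the tenocyte markers to 7451, the highest of NC. Its adipocyte markers, at 2474 FPKM, were also the lowest of NC. The 2 of 5 erythroid markers with a row were lowest of their group in both libraries, at 157 FPKM in NC replicate 3 and 135 in 0 h p.r. replicate 3. The part of these cells in the pattern was not tested.

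After subtracting the group means, all 36 pairs of the 9 genes had a positive Pearson's r over the 8 libraries, with a median of 0.68 (0.30 to 0.98, the highest for Irf1 with Ifit3). These correlations are given as a description, since all points share the same libraries. Without 0 h p.r. replicate 3 the median was 0.56, and without NC replicate 3 it was 0.57, with all 36 pairs positive in each case. Without both of these libraries it was 0.082, with 13 of 36 pairs negative. The pattern rested on these 2 libraries. Irf7 followed the mean of the other 8 genes most closely (r = 0.93) and Stat2 least (0.55).

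**Figure D3:**
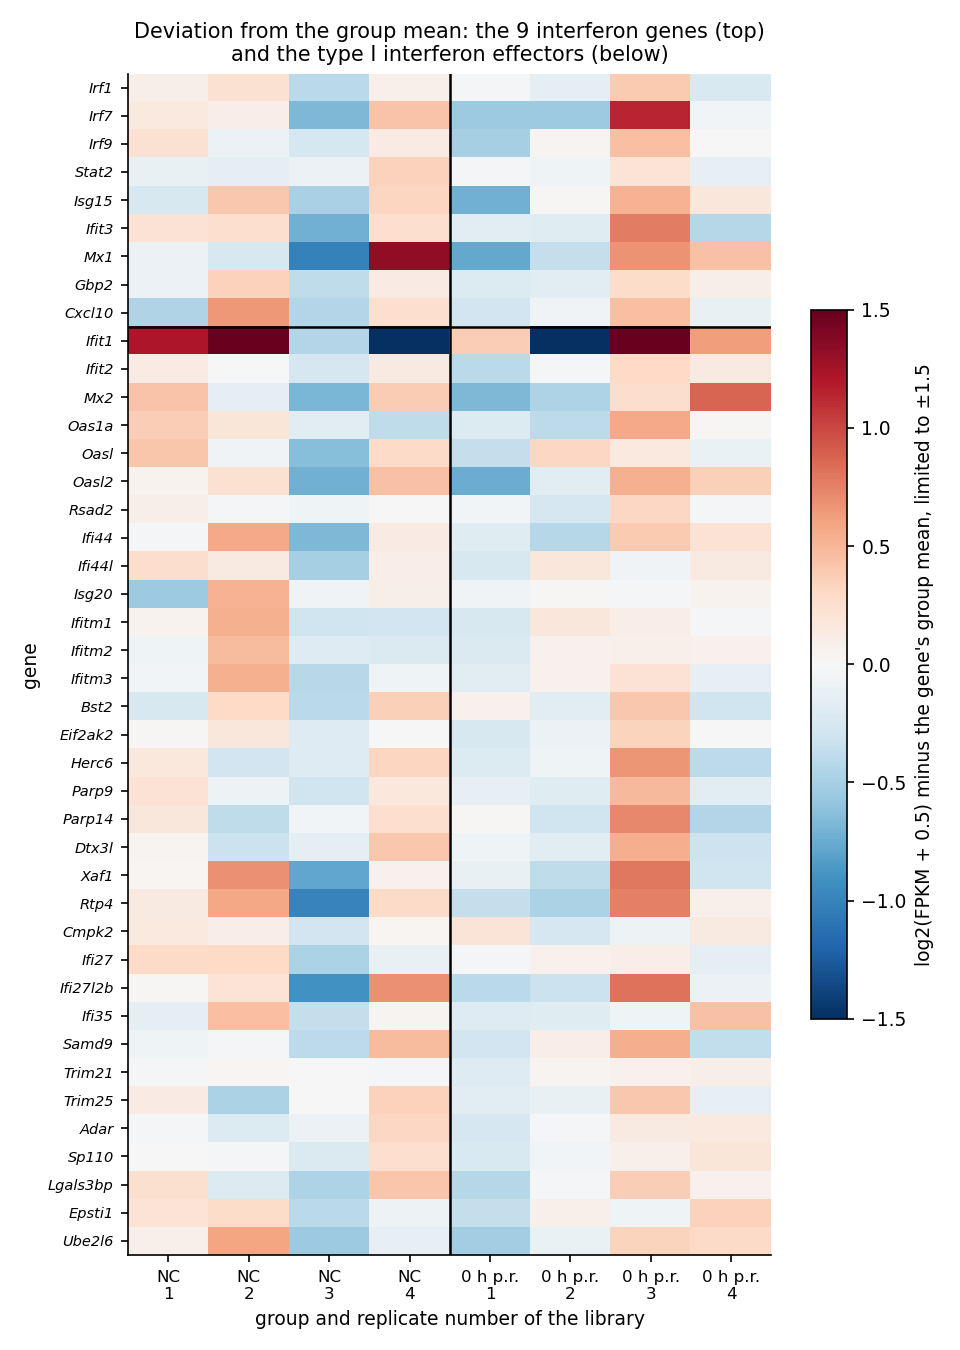
Deviation of each gene from its own group mean on log2(FPKM + 0.5), limited to ±1.5 (colour), for the 9 interferon genes (top) and 33 type I interferon effectors (below) in the 8 libraries (columns, group and replicate number). Most genes are blue in NC replicate 3 and red in 0 h p.r. replicate 3.

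The same libraries stood apart for other genes of the pathway. Of 33 tested type I interferon effectors outside the 9 genes, 22 were highest after running in replicate 3 and none was lowest there, while 23 were lowest at rest in NC replicate 3 and none was highest there. A Pearson's r above 0.8 with the mean of the 9 genes was seen for 10 of these 33, and for 1.05% of all tested genes outside the 9. The closest was Ifi27l2b (r = 0.98), followed by Rtp4, Eif2ak2 and Oasl2 (0.92 to 0.89), and among the interferon gamma targets Cxcl9 had an r of 0.96. Outside the lists the 5 closest genes over the 8 libraries were Myh11, which encodes smooth muscle myosin (r = 0.97), Scube3 (0.96), Kcnmb1, a potassium channel subunit of smooth muscle (0.96), Cd200 (0.96) and Rab6b (0.94). Myh11 ran from 78.7 FPKM in NC replicate 3 to 160 in 0 h p.r. replicate 3. Without both libraries numbered 3 the r of these 5 genes lay between 0.75 and 0.92. They were chosen for their r over all 8 libraries, which include the ones kept here. A high r was therefore partly set by the choice.

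The wider list held 105 other genes of the pathway, 85 of them with a row and 80 that passed the filter on low values. Past both thresholds were 3 that rose, Socs3, Socs1 and Ifnlr1, and 1 that fell, Ciita. The calls of Ifnlr1 and Ciita were lost in some settings, given with each gene below. Over all tested genes 1.8% rose and 0.894% fell by these thresholds. The list had 40 genes above and 40 below 0, with a median log2 fold change of 0.00035, and 71 of the 80 lay within 1.5-fold, against 85.6% of all tested genes. None of the 11 ligand genes of the list (type I, II and III interferons) had a row, and they were not analysed here.

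Of the 6 brakes, all tested, 2 passed both thresholds, Socs3 and Socs1, and Ptpn2 passed the adjusted p alone. The log2 fold change was above 0 in all 6 (median 0.60), as in 49.9% of all tested genes, and Pias1 (0.13) and Trex1 (0.19) did not pass. Socs3, which blocks receptor-bound Jak kinases and is best known as feedback on Il6-type cytokines, stood at 11.9, 9.01, 19.3 and 26.5 FPKM in NC and at 131, 150, 206 and 111 in 0 h p.r. It rose 9.23-fold on the fitted scale (log2 fold change 3.21, standard error 0.33, limma adjusted p 0.00151). Socs1, the feedback inhibitor of interferon gamma signalling, stood at 2.48, 2.93, 5.94 and 3.49 FPKM in NC and at 14.5, 9.70, 17.0 and 13.4 in 0 h p.r., with no overlap. It rose 3.45-fold (log2 fold change 1.79, standard error 0.26, limma adjusted p 0.00698), and both genes passed in all 18 other settings.

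Ptpn2, a phosphatase that removes phosphate from Jak1, stood at 9.40 to 11.5 FPKM in NC and at 13.5 to 19.96 in 0 h p.r. It had a limma adjusted p of 0.0290 and a fold of 1.63, short of the fold threshold. When libraries were dropped singly, the adjusted p stayed under 0.05 only without 0 h p.r. replicate 4 (up to 0.0990 without 0 h p.r. replicate 2). In limma it was also 0.241 after rescaling to TPM, 0.107 with the replicate number as a block and 0.179 without both libraries numbered 3. Usp18, the brake that is specific to type I interferon and removes Isg15 from proteins, stood at 2.41, 3.52, 1.28 and 4.91 FPKM in NC and at 2.88, 3.78, 4.86 and 5.31 in 0 h p.r. These groups overlapped (log2 fold change 0.50, limma adjusted p 0.427), and the value for Usp18 was 0.21 without NC replicate 3, 0.74 without NC replicate 4 and 0.14 without both libraries numbered 3. The promoter of Socs1 also held 1 match to the GAS letters, 196 bases before the start and outside the window shown. The promoter window of Socs1 (chr10:5389442-5389507, plus strand, GRCr8) held 2 overlapping matches to the ISRE letters, the first 107 bases before the start, and it is shown for comparison with the 4 above.
Socs1: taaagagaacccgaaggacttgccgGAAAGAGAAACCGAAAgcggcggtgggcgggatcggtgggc

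**Figure D4:**
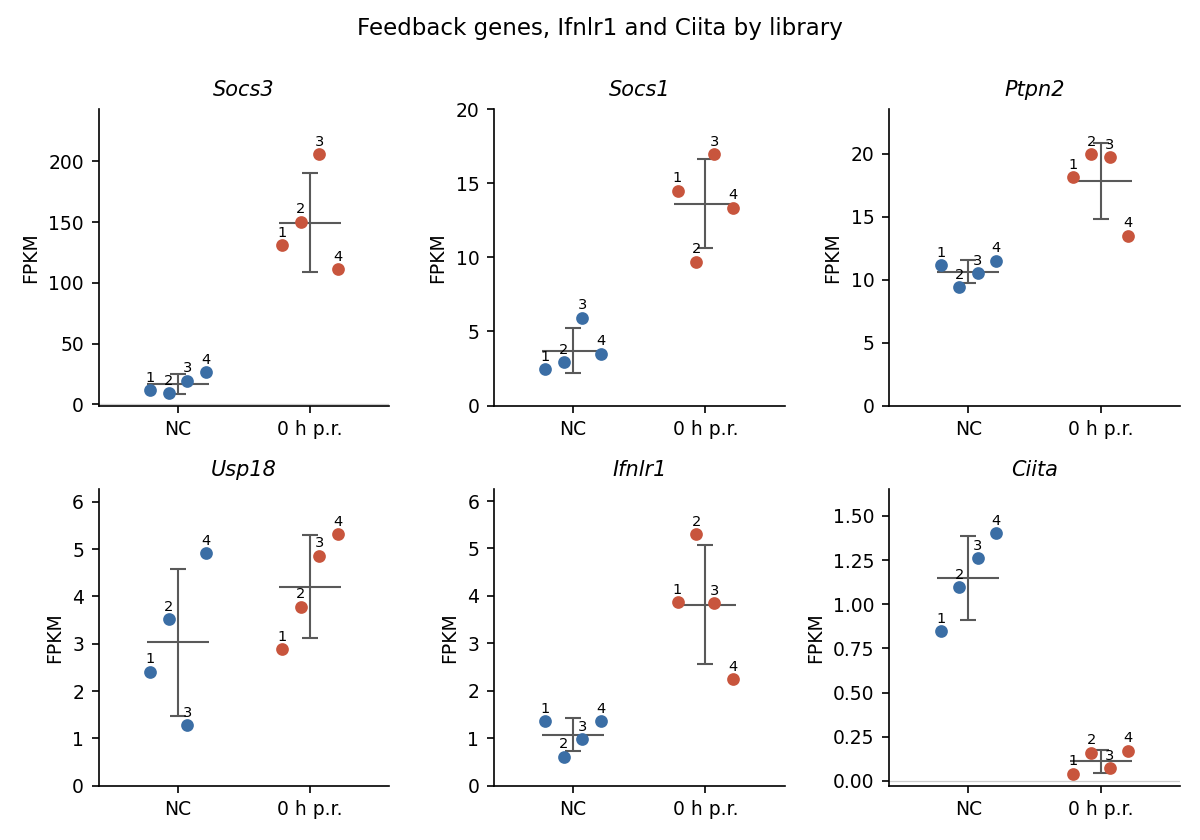
FPKM (y axis) of the feedback genes Socs3, Socs1, Ptpn2 and Usp18, the receptor gene Ifnlr1 and the class II transactivator gene Ciita in the 4 NC and 4 0 h p.r. libraries. Points are libraries with replicate numbers, lines and bars the mean and SD. The groups are apart in every panel but that of Usp18.

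Among the receptors Ifnlr1, the specific chain of the type III interferon receptor, rose past both thresholds. It stood at 1.35, 0.613, 0.983 and 1.36 FPKM in NC and at 3.86, 5.30, 3.85 and 2.24 in 0 h p.r. (log2 fold change 1.43, standard error 0.26, limma adjusted p 0.0180). With libraries dropped singly the call was lost 4 times of 8, without NC replicate 3 (adjusted p 0.0501 in limma) and without 0 h p.r. replicates 1, 2 and 3 (0.0502, 0.0581 and 0.0581). The other 5 receptor genes, Ifnar1, Ifnar2, Ifngr1, Ifngr2 and Il10rb, lay between -0.32 and 0.25 on the log2 scale and did not pass.

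Among 18 tested interferon gamma targets Ciita was the only call. It encodes the master activator of MHC class II genes, and it stood at 0.847, 1.10, 1.26 and 1.40 FPKM in NC (60 to 115 recovered reads) and at 0.0409, 0.160, 0.0707 and 0.171 in 0 h p.r. (3 to 17 reads). The groups were far apart, and the post-run mean was 0.0960 of that in NC. Ciita met the filter on low values through its NC libraries alone, since every post-run value lay under 0.5 FPKM. With no filter its limma adjusted p was 0.00212, and with a mean of 2 FPKM as the filter it was not tested. With 0.5 FPKM added before taking logs, so that the change of so low a gene is understated, Ciita fell by 1.43 (standard error 0.18, limma adjusted p 0.00414), and by 0.95 with a pseudocount of 1, short of the fold threshold. It passed whichever single library was dropped (limma adjusted p 0.00533 to 0.0163) and not without both libraries numbered 3 (0.0547), where the log2 fold change was -1.37. The macrophage marker list overlapped between the groups, and the adipocyte list was lower after running without overlap, as given above. The part of either in the fall of Ciita was not tested.

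None of the 33 tested type I effectors passed both thresholds in limma or in voom, with 4 and 5 at an unadjusted p under 0.05 (in limma 22.6% of all tested genes were), and their median log2 fold change was 0.021. In the main fit the largest change was that of Ifi27l2b (log2 fold change 0.96, limma adjusted p 0.159). Its values were 40.0, 45.7, 20.7 and 63.6 FPKM in NC and 58.0, 61.8, 136 and 72.3 in 0 h p.r. Without both libraries numbered 3 its log2 fold change was 0.38, and that of Rtp4 was -0.45. Without 0 h p.r. replicate 2 the value for Ifit1 (1.16) was above that for Ifi27l2b (1.07). The lowest adjusted p of these effectors was that of Isg20 (log2 fold change 0.73, limma adjusted p 0.0677). Isg20 was the 1 effector higher after running without overlap, and Cmpk2 (-0.48, limma adjusted p 0.147) the 1 lower without overlap. Of all tested genes 8.15% and 7.47% were so. Of 8 tested kinases and other IRFs none passed. The kinase genes Jak2 (log2 fold change 0.48, limma adjusted p 0.113) and Tyk2 (-0.46, limma adjusted p 0.203) had changes of like size in opposite directions, and with array weights that of Tyk2 (-0.65) was larger than that of Jak2 (0.41). Irf3, the constitutive factor activated by viral sensors, stood at 29.8 to 32.3 FPKM in NC and 27.8 to 36.8 in 0 h p.r. (log2 fold change -0.025, 95% interval -0.28 to 0.23). None of 9 sensors and adaptors passed. Tlr3, a receptor for double-stranded RNA, was the largest, at 3.77 to 5.71 FPKM in NC and 1.52 to 3.31 in 0 h p.r. with no overlap (log2 fold change -0.84, limma adjusted p 0.0575).

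The ISRE letters were present in the promoters of 20 of 27 type I effectors and 12 of 18 interferon gamma targets with a sequence, against 3.92% of all promoters. The GAS letters were present in 6 of 27 and 6 of 18, against 8.87%. An NF-kB pattern, GGG, 2 bases of any kind and TTTCC on either strand, was in none of the 8 matched promoters of the 9 genes, in none of 27 type I effectors, in 5 of 18 interferon gamma targets and in 1.53% of all promoters. These matches are letters in a window of a later genome build and are not evidence of binding in tendon.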

How the data were processed

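Polyadenylated tendon RNA was sequenced in 8 stranded libraries. Per the labels and the study's methods, the authors aligned reads with HISAT2 2.1.0 to Rnor_6.0, counted them per gene with featureCounts 1.6.3 and normalized with DESeq2 1.30.1. The deposited values were FPKM per gene and library, and the authors' columns of fold changes and p-values were not used. Whole reads were recovered from the FPKM steps for 15590 of 15590 genes (100.0%, within 0.03 reads) and gave the depth. Read numbers show counting error alone.

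The test took genes that reached 0.5 FPKM in 4 or more of the 8 libraries, on log2(FPKM + 0.5) with limma 3.58.1 (lmFit, eBayes with trend) in R 4.3.3, two-sided, without covariates and with Benjamini-Hochberg adjustment over all tested genes. On simulated reads of this comparison with genes changed 4-fold, the fit ran on 13888 genes and called 94.9% of 196 changed genes, and 6.53% of its calls were unchanged genes. Alternatives were pseudocounts of 0.1 and 1, a mean of 2 FPKM or nothing as the filter, TPM and quantile scaling, array weights, a block for replicate number, voom on the recovered reads, the adjusted p alone, and leaving out each library. Leaving out both libraries numbered 3 was chosen after seeing the data. The 9 genes and the lists were chosen with earlier results of these data known. Named genes were the 9, the members of each sublist of the wider list with an adjusted p under 0.05 or else the largest change, Irf3, Usp18 and Socs1, and the 5 genes closest to the mean of the 9. Genes named beside these (the other effectors by r, the receptor chains, Tyk2, Pias1, Trex1, Cxcl9, Ifit1, Isg20, Cmpk2 and Tap2) were chosen after their values were seen. Promoters are those of RefSeq for GRCr8. Figures were drawn with matplotlib 3.10.9 in Python 3.11.15.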

Additional observations from a re-analysis of the deposited data

Results flagged for a closer look

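Of 38 groups of 4 libraries checked over 19 named genes, 3 held a library far from the others by Dixon's criterion, which chance flags in about 1 of 20 groups. Stat2 stood at 14.9 FPKM in NC replicate 4 against 10.4 to 10.9 in the other NC libraries. Ifit3 stood at 3.96 FPKM in NC replicate 3 against 8.06 to 8.29, and at 18.6 in 0 h p.r. replicate 3 against 7.90 to 9.60 in the other post-run libraries.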

How the results depend on the processing

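None of the 9 interferon genes was called in the other settings run (with a mean FPKM of at least 2 as the filter, 7 of the 9 were tested, without Mx1 and Cxcl10), and Irf1 reached a limma adjusted p of 0.0347 with array weights at a fold under 2. Over all genes 374 passed (66.8% of them higher), 166 after rescaling to TPM (77.7% higher), 793 by the adjusted p alone, 195 to 516 when each library was left out, and 125 without both libraries numbered 3, where 2 of the wider list passed instead of 4. Among single libraries left out, the count was lowest without 0 h p.r. replicate 2 (195), 0 h p.r. replicate 3 (201) and NC replicate 1 (217). With the replicate number as a block 212 genes passed. The numbers did not pair the samples (r of the deviations -0.141 to 0.0717, and no library correlated best with its own number). Signs near 0 turned for Irf9 (-0.021 without 0 h p.r. replicate 3, up to 0.29 without other single libraries, -0.11 without both numbered 3), Isg15 (-0.014 without both), Gbp2 (0.016 with array weights, -0.20 to 0.040 without single libraries) and Irf3 (-0.11 to 0.022 without single libraries, 0.0018 without 0 h p.r. replicate 3, 0.0053 without both). Ifnlr1 also did not pass after TPM rescaling (limma adjusted p 0.0738) or with the block (0.0794) or without both libraries numbered 3 (0.130). The causes were not tested. Low read numbers limit Cxcl10 (7 to 23 reads per library), Ciita after running (3 to 17) and Mx1 in NC replicate 3 (9). Of 358 alternative values for 19 named genes 340 kept their direction and call, 9 lost a call, 1 gained a call and 8 turned their sign. Most of these genes were not called in the main fit, so keeping that state says little about them. The size of a change could move within this count, as for Irf7 (0.73, and 0.12 without both libraries numbered 3). The adjusted p alone was counted as a setting, and it reuses the fold changes of the main fit.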

Other observations

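Of the type I effectors, Ifit1 was near absent from single libraries of both groups, with 1 recovered read in NC replicate 4 and 0 in 0 h p.r. replicate 2. It stood at 6.47, 9.42 and 1.71 FPKM in the other NC libraries and at 4.04, 11.8 and 4.93 in the other post-run libraries. The antigen transporter gene Tap2 stood at 0.766 and 0.709 FPKM in 0 h p.r. replicates 1 and 3 and at 4.11 and 6.06 in replicates 2 and 4, against 1.35 to 3.78 in NC.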
